A study of Mus musculus with 22 samples.

Results

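Primary chondrocytes from the knee articular cartilage of control mice were compared after 3 days of treatment with BMP2, a bone morphogenetic protein, and at day 0. The comparison took 7 of the 22 RNA-seq samples of the study, chosen by their labels alone: 3 control cultures at day 0 and 4 control cultures at day 3. The study asked how Dnmt1, the enzyme that copies DNA methylation onto new strands, bears on gene expression in growth plate chondrocytes. The controls of both days carried the Dnmt1 flox allele, and the labels name no Cre driver for them and do not give the zygosity of the allele. The mice were taken between postnatal days 3 and 5, and the cells were kept in DMEM Glutamax with 10% fetal bovine serum. The day 3 cultures received BMP2 at 100 ng/µl, the unit as the labels write it, whereas no treatment is named for day 0. The matching 7 cultures of Prrx1-Cre;Dnmt1 flox/flox mice, labelled cKO, served for a single comparison, and Prrx1-Cre is a driver of the early limb mesenchyme. The cartilage tissue samples were not used here.

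Day, BMP2 and count table changed together in this design: the day 0 and day 3 libraries were deposited in separate tables, and no culture kept for 3 days without BMP2 was analysed here. The effects of BMP2, of time in culture and of the processing of each table therefore cannot be told apart, and every difference below is one between the day 3 and the day 0 libraries. These are bulk libraries, in which fewer cells of a type and less RNA per cell cannot be told apart either.

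BMP ligands bind paired type I and type II receptors, which phosphorylate Smad1, Smad5 and Smad9; with Smad4 these enter the nucleus and switch on direct targets such as the Id genes and the inhibitory Smads, Smad6 and Smad7. Secreted antagonists such as noggin, gremlin and chordin hold the ligands away from the receptors. In the growth plate, chondrocytes driven by Sox9 make type II collagen and aggrecan, divide in columns, then stop dividing and become hypertrophic, when they express type X collagen (Col10a1), Runx2, Mmp13 and osteopontin (Spp1).

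The day 0 libraries held 46911436 to 50701451 estimated counts and the day 3 libraries 14434197 to 18503545, so a count of 3, the limit of detection used here, was worth 0.0615 to 0.0671 CPM at day 0 and 0.158 to 0.200 CPM at day 3. CPM is a gene's count relative to the scaled size of its library, which is the library total multiplied by its edgeR scaling factor. The share of counts in the 13 genes of the mitochondrial genome was 1.55 to 1.72% at day 0 and 2.13 to 2.32% at day 3. Libraries of 1 group differed from each other by more than the sampling noise in every pair, and the biological coefficient of variation was 0.0568 among the day 0 and 0.128 among the day 3 libraries. The summed level of 4 Y-linked genes split the libraries: it was 2.91 and 4.30 CPM in day 0 replicates 1 and 2 but 217 CPM in replicate 3, and 5.27 and 4.87 CPM in day 3 replicates 1 and 4 but 227 and 263 CPM in replicates 2 and 3. Unlike the other CPM values, these sums are relative to the library total alone, without the scaling factor. The labels give no sex for the cultures, and with this split as a covariate 9064 genes were called, against 9074 without it.

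The label of chondrocyte held in both groups. All 10 chondrocyte markers were detected, and their summed level was 127993 to 135884 CPM at day 0 and 82012 to 102201 CPM at day 3. Type II collagen (Col2a1) alone gave 102865, 96833 and 101524 CPM in the day 0 libraries and 69793, 70385, 64544 and 73979 CPM in the day 3 libraries. Some genes of other cell types had no count in any library: 4 of 7 erythroid genes (Hba-a1, Hba-a2, Hbb-bs and Hbb-bt), the endothelial genes Cdh5 and Cldn5, the macrophage gene C1qa, the adipocyte genes Adipoq, Cidec and Lep, and the muscle genes Myf5 and Pax7. Other markers were counted, and many of them moved between the days. The summed level of 8 pericyte and smooth muscle markers was 769 to 788 CPM at day 0 and 503 to 618 CPM at day 3. Of the 5 tested, 2 were called higher and 3 lower, from -4.09 to 4.95 on the log2 scale. The largest rise was that of Rgs5, from a mean of 0.163 CPM to 5.20 CPM. The 13 macrophage and osteoclast markers summed to 163 to 168 CPM and then to 114 to 141 CPM. Although this sum fell, 3 of the 5 tested were called higher and 2 lower. The 10 Schwann and neural markers summed to 163 to 178 CPM and then to 223 to 270 CPM, with 3 of 5 tested called higher and 1 lower. The 10 adipocyte markers went from 51.9 to 56.3 CPM up to 101 to 126 CPM, and all 5 tested were called higher. The 12 skeletal muscle markers summed to 12.4 to 13.96 CPM and then to 1.67 to 2.11 CPM, with 3 of 3 tested called lower and 9 too low to test. At such levels a gene can enter the test through its higher day alone, which bears on its direction. The 10 endothelial markers summed to 3.91 to 4.65 CPM and then to 6.51 to 9.11 CPM, and the 7 erythroid markers to at most 0.268 CPM in any library. Markers of fibroblasts and osteoblasts were present, among them the type I and type III collagens, which many mesenchymal cells make. The summed level of 10 fibroblast markers was 3272 to 4831 CPM at day 0 and 6854 to 8693 CPM at day 3, and that of 10 osteoblast markers was 3320 to 5325 CPM at day 0 and 7971 to 8892 CPM at day 3. Nearly all of the osteoblast sum was type I collagen. The means of Col1a1 and Col1a2 were 2168 and 2211 CPM at day 0 and 4142 and 4188 CPM at day 3. The part of cells of other types in the differences below was not tested.

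Between day 0 and day 3, most expressed genes differed. Of 13655 genes tested, 9074 (66.5%) passed an adjusted p of 0.05 in edgeR's quasi-likelihood test with Benjamini-Hochberg adjustment over all of them; such genes are said to be called. Of these, 4543 (33.3% of genes tested) were higher and 4531 (33.2%) were lower at day 3, and the median log2 fold change over all genes was 0.01. Library totals alone, without a scaling factor, moved that median to 0.13 and the split to 5534 higher and 3649 lower, so 60.3% of calls were higher in place of 50.1%; small changes below are relative to the scaling used. A change of at least 1 on the log2 scale was reached by 2715 called genes (19.9%), 1550 of them higher (11.4%) and 1165 lower (8.53%). In 9279 genes (68.0%) the day 3 libraries did not overlap the day 0 libraries. The counts of members called in each group of genes below are read against these shares. A fit of all 14 culture libraries of both genotypes, with 1 estimate of the spread, ended the calls of some genes named below. Its adjusted p is then given beside them, except for Dlx3, Ihh, Col2a1, Col11a1 and Ibsp. For these it lies within the range given over 18 alternatives. That fit includes cKO day 3 replicate 4, which stood apart from its group. It held 705 CPM of Col2a1 against 8399 to 12108 CPM, and 34.2 CPM of Sox9 against 181 to 225 CPM. The part of that library in the lost calls was not tested.

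**Figure D1:**
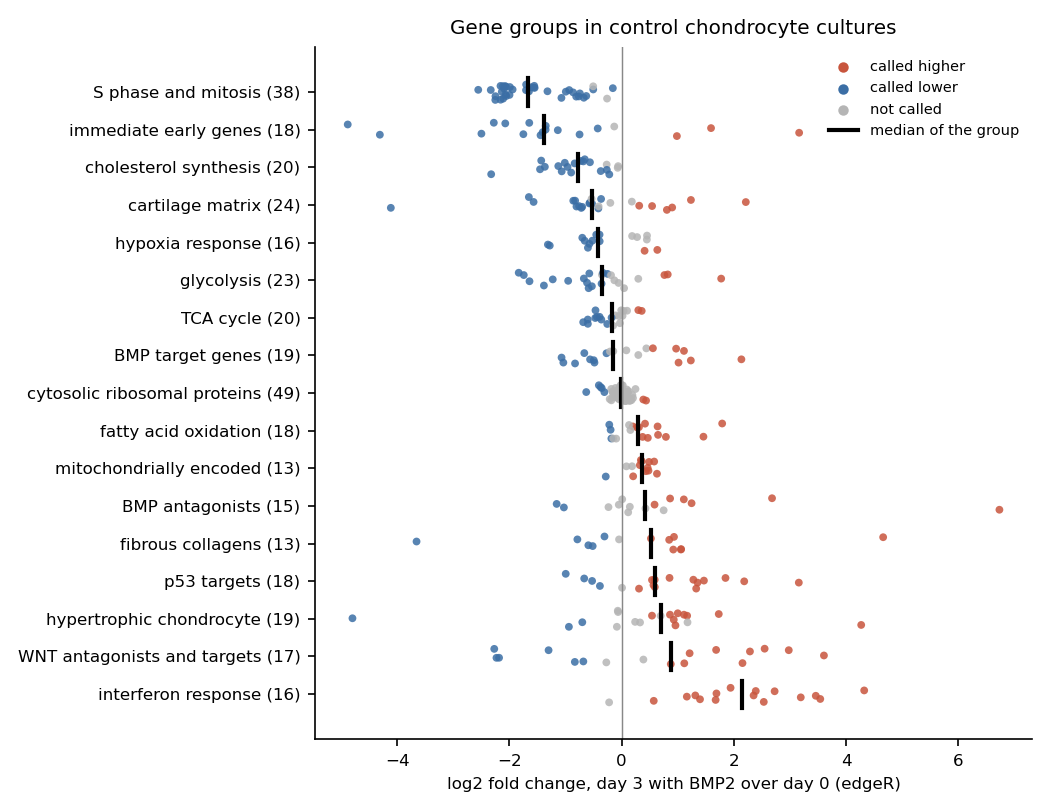
Log2 fold change of day 3 with BMP2 over day 0 (x axis, edgeR) for the tested members of 17 gene groups (y axis, number tested in brackets) in control cultures, 4 libraries against 3. Each point is a gene, red where called higher, blue where called lower and grey where not called, and the black bar is the group's median, from -1.68 for S phase and mitosis genes to 2.15 for interferon response genes.

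The BMP pathway showed no common direction among its targets, whereas some of its secreted antagonists rose steeply. Of 19 BMP target genes, all tested, 6 were called higher and 8 lower, with a median log2 fold change of -0.15. Without day 3 replicate 2 or 4 that median was -0.08 and -0.09. Id1, an inhibitor of basic helix-loop-helix factors and a standard BMP readout, measured 78.8, 81.0 and 83.0 CPM at day 0 and 66.5, 56.5, 48.6 and 59.9 CPM at day 3, with no overlap (log2 fold change -0.48 ± 0.0936 SE, adjusted p = 0.00164). Id2 fell from 59.5 ± 1.03 (SD, n = 3) to 28.4 ± 6.15 CPM (n = 4), and Smad7, which blocks the receptors, fell from 24.6 ± 0.858 to 12 ± 2.92 CPM, both close to a log2 fold change of -1 (-1.07 and -1.04). Id4, Smad9, Atoh8 and Hes1 were lower as well, by 0.50 to 0.83 on the log2 scale, with adjusted p = 0.148 for Id4 in the 14-library fit. Id3 was called lower at -0.27, but its libraries overlapped and the call was lost in 9 of 18 alternatives, with adjusted p from 0.000229 to 0.215. Smad6, the other inhibitory Smad, stood at 33.6, 34.7 and 36.4 CPM and then at 37.2, 29.2, 31.6 and 27.9 CPM, a difference that was not called (-0.15 ± 0.0925 SE, adjusted p = 0.187). Bambi, Msx1, Msx2 and Dlx5 were not called either.

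The 6 BMP targets that rose were Dlx2, Sp7, Hey1, Dlx3, Snai2 and Tcf7l1. Dlx2, a homeobox gene, went from 1.89, 1.45 and 1.57 CPM to 11.2, 6.60, 4.87 and 6.23 CPM (log2 fold change 2.14 ± 0.282 SE, adjusted p = 0.000178). Sp7 (osterix), required for osteoblasts, rose from 13.3 ± 0.658 to 28.9 ± 8.10 CPM. Hey1, Dlx3, Snai2 and Tcf7l1 rose by 1.23, 1.01, 0.97 and 0.56 on the log2 scale. The call of Dlx3 was lost in 4 of 18 alternatives (adjusted p from 0.00994 to 0.0951), among them each fit without a day 0 library, and its change was 0.62 without day 3 replicate 1. Hey1 had an adjusted p of 0.0828 in the 14-library fit. Day 3 replicate 1 had the highest level of Dlx2, Dlx3, Hey1, Sp7 and Snai2 among the day 3 libraries, as it did of Id1, Id2, Id3, Id4, Smad6 and Smad7. None of the day 3 libraries reached the day 0 range for Id1, Id2, Id4 or Smad7.

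Among 15 tested BMP antagonists, 6 were called higher and 2 lower, with a median of 0.43, which was 0.27 without day 3 replicate 1. Gremlin 1 (Grem1, chromosome 2, 113746164 to 113758646 on GRCm38) measured 15.5, 18.4 and 20.9 CPM at day 0 and 1595, 2148, 2261 and 1790 CPM at day 3. Its log2 fold change of 6.74 ± 0.191 (SE, adjusted p = 1.63e-07) was the largest rise of any named gene. Chordin-like 1 (Chrdl1) rose from 31.1 ± 3.48 to 199 ± 76.0 CPM, with day 3 replicate 1 at 90.7 CPM and the other day 3 libraries between 206 and 262 CPM. Follistatin (Fst), which binds activins and some BMPs, rose from 32.2 ± 0.968 to 58.7 ± 7.99 CPM, and Chrdl2 and Fstl3 rose by 1.25 and 0.59 on the log2 scale. The adjusted p of Chrdl2 was 0.0719 in the 14-library fit. Bmper and Sostdc1 fell by 1.16 and 1.03. Noggin (Nog), an antagonist that BMP signalling itself induces in cartilage, was at 61.9, 72 and 73.7 CPM and then at 122, 87.4, 64.1 and 98.4 CPM; the groups overlapped and the difference was not called (0.43 ± 0.184 SE, adjusted p = 0.0681), although it was called in 5 of 18 alternatives, with adjusted p from 0.00368 to 0.198. Chordin (Chrd) was not called.

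Of 17 tested receptors and Smads, 6 were called higher and 2 lower, with a median of 0.12 (0.08 and 0.07 without day 0 replicate 2 or 3). The type I receptors Bmpr1a and Acvr1 were not called (log2 fold changes of -0.11 and -0.10), and the type II receptor Bmpr2 rose from 84.2 ± 3.40 to 106 ± 9.15 CPM (adjusted p = 0.115 in the 14-library fit). Smad1 rose from 21.9 ± 0.719 to 36.2 ± 2.55 CPM and Tob1, a repressor of Smad signalling in bone cells, from 28.9 ± 0.469 to 65.2 ± 4.35 CPM. Smad4 fell by 0.19 on the log2 scale, a call lost with library totals alone or upper quartile factors (adjusted p = 0.224 and 0.0802), and Skil, a co-repressor, fell from 38.0 ± 1.25 to 17.7 ± 1.67 CPM.

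Ligands of the family changed in both directions: of 13 tested, 6 were called higher and 6 lower. Their median of 0.34 took the other sign without day 3 replicate 2, 3 or 4, reaching -0.26, and was 0.10 without day 0 replicate 3 and 0.51 without day 3 replicate 1. Gdf6, a joint and limb ligand, stood at 0.212, 0.389 and 0.425 CPM and then at 9.18, 12.4, 28.2 and 9.70 CPM (5.43 ± 0.533 SE, adjusted p = 3.27e-05). Inhba, which encodes an activin subunit, rose from 13.6 ± 2.49 to 51.9 ± 7.07 CPM, and Gdf11 from 1.80 ± 0.0716 to 8.84 ± 1.97 CPM. The endogenous Bmp2 transcript fell from 10.1 ± 0.574 to 3.27 ± 0.539 CPM, and Bmp7, Gdf5 and Bmp3 fell by 1.86, 1.70 and 2.20 on the log2 scale. Bmp4 was not called.

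**Figure D2:**
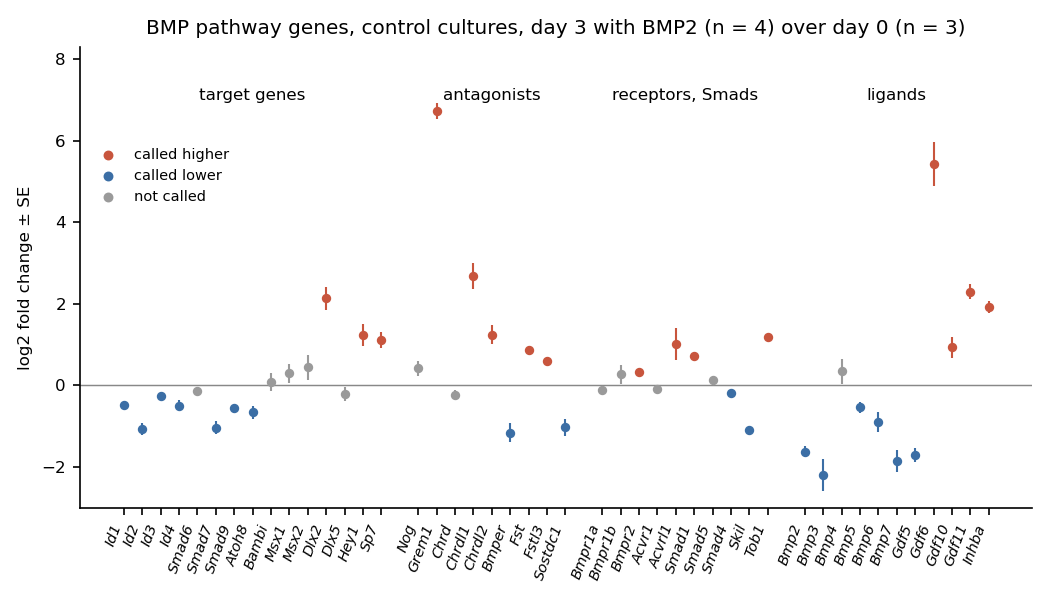
Log2 fold change of day 3 with BMP2 (n = 4) over day 0 (n = 3) with its standard error (y axis) for BMP pathway genes grouped by role (x axis), red where called higher, blue where called lower and grey where not called. Grem1 (6.74) and Gdf6 (5.43) stand far above the rest, and the Id genes and Smad7 lie below 0.

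Genes of the TGF-beta branch were lower more often than higher: of 16 tested, 5 were called higher and 8 lower, with a median of -0.22. The receptor Tgfbr1 fell from 66.8 ± 1.30 to 27.4 ± 3.64 CPM. Ccn1, a matricellular target shared with mechanical signalling, fell from 1100 ± 34.1 to 359 ± 56.5 CPM, and Ccn2 from 2440 ± 72.3 to 1296 ± 273 CPM. The ligand Tgfb1 and the latent-complex protein Ltbp2 rose, by 1.01 and 2.24 on the log2 scale.

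The cartilage matrix programme was lower at day 3 in most of its members. Of 24 matrix genes tested, 14 were called lower and 6 higher, the median was -0.53, and the groups did not overlap in 20. Matrilin 3 (Matn3), a linker of the collagen network, showed the steepest fall, from 561, 547 and 577 CPM to 43.4, 22.6, 32.3 and 31.8 CPM (log2 fold change -4.12 ± 0.179 SE, adjusted p = 6.77e-07). Epiphycan (Epyc), a small proteoglycan of the growth plate, fell from 525 ± 28.8 to 167 ± 76.9 CPM. Link protein (Hapln1), which ties aggrecan to hyaluronan, fell from 2730 ± 63.1 to 1678 ± 231 CPM (adjusted p = 0.204 in the 14-library fit).

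The major structural genes changed less, and with less certainty. Col2a1 was called lower at -0.53 ± 0.196 (SE, adjusted p = 0.0398) with all day 3 libraries below the day 0 range; the call was lost in 8 of 18 alternatives, with adjusted p from 1.41e-17 to 0.464. Aggrecan (Acan) measured 10839, 10037 and 10564 CPM and then 7492, 7356, 4960 and 8457 CPM (-0.57 ± 0.174 SE, adjusted p = 0.0175, but 0.366 in the 14-library fit). Of the partner collagens of type II fibrils, Col9a3 fell by 0.86 on the log2 scale and Col11a2 by 0.83 (adjusted p = 0.254 and 0.277 in the 14-library fit), while Col11a1 was called at -0.37 with the call lost in 9 of 18 alternatives (adjusted p from 3.77e-06 to 0.355). Matn1 was not called, and its day 3 libraries ran from 1106 to 3314 CPM around a day 0 mean of 3225 CPM.

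The 6 matrix genes that rose were Fmod, Matn4, Cnmd, Mia, Prelp and Comp. Fibromodulin (Fmod), a binder of collagen fibrils, rose from 1088 ± 41.7 to 2561 ± 387 CPM and Matn4 from 54.1 ± 1.44 to 251 ± 59.7 CPM. Chondromodulin (Cnmd), an inhibitor of vessel growth in cartilage, rose from 2703 ± 41.6 to 3939 ± 741 CPM, and Comp and Prelp by 0.31 and 0.90 on the log2 scale. The call of Comp was lost in 3 of 18 alternatives: the 14-library fit, the replicate block and the fit without day 0 replicate 2 (adjusted p = 0.430, 0.0570 and 0.0535). The 14-library fit also ended the calls of Cnmd and Mia, with adjusted p of 0.637 and 0.223, and the level of Mia is uncertain because 37.8% of its 31-base words occur in other genes.

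Transcription factors of the chondrocyte lineage split. Sox9, the master regulator of cartilage, was higher in every day 3 library: 268, 276 and 277 CPM at day 0 and 476, 449, 406 and 413 CPM at day 3 (0.67 ± 0.067 SE, adjusted p = 3.57e-05, but 0.190 in the 14-library fit). Its partners Sox5 and Sox6 were not called, with log2 fold changes of 0.07 and 0.03, and the sign for Sox6 turned in 3 alternatives. Sox8 fell by 1.05. Foxa2, a regulator of hypertrophic differentiation, went from 10.5, 10.7 and 10.8 CPM to 0.931, 0.317, 1.94 and 1.16 CPM (-3.31 ± 0.332 SE, adjusted p = 3.67e-05), and Foxa3 fell by 1.45. Over all 14 tested factors, 5 were called higher and 4 lower, with 3 called higher without day 0 replicate 1 or 3.

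Hypertrophic genes did not follow type X collagen. Col10a1 (chromosome 10, 34389981 to 34397085 on GRCm38), the defining collagen of hypertrophic chondrocytes, fell from 1185, 1143 and 1144 CPM to 75.6, 24.0, 39.3 and 28.1 CPM, a log2 fold change of -4.80 ± 0.362 (SE, adjusted p = 7.7e-06). Yet 9 of the 19 tested genes of the group were called higher and 3 lower, with a median of 0.70 (0.46 without day 3 replicate 4). Runx2, the driver of hypertrophy and bone formation, rose from 23, 26.5 and 26.4 CPM to 54.1, 36.4, 60.8 and 51.5 CPM (1.0 ± 0.155 SE, adjusted p = 0.000447), and its partner Mef2c rose from 30.2 ± 1.62 to 55.0 ± 4.76 CPM. Panx3, a channel of prehypertrophic cells, rose from 79.8 ± 4.16 to 180 ± 51.4 CPM. Mmp13, the collagenase of late hypertrophy, rose from 38.4, 39.6 and 27.4 CPM to 142, 51.5, 184 and 90.5 CPM. Spp1 and Ibsp, acidic proteins of mineralizing matrix, rose by 0.96 and 0.93 on the log2 scale, and the Ibsp call was lost in 2 of 18 alternatives (adjusted p from 0.000968 to 0.414). Bglap2 (osteocalcin) rose from 0.100 ± 0.0293 to 2.03 ± 1.03 CPM, a low and uncertain level, since 95.2% of its 31-base words occur in other genes. Runx3 and Vegfa were the other genes called lower, by 0.94 and 0.70. Alkaline phosphatase (Alpl), Phospho1 (87.3% of 31-base words shared) and Fgfr3 were not called.

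The Indian hedgehog and PTHrP loop, which sets the pace of hypertrophy, showed no common direction. Ihh was at 5.57, 5.16 and 5.75 CPM and then at 9.78, 5.07, 7.86 and 9.44 CPM; it was called higher (0.54 ± 0.203 SE, adjusted p = 0.0406) with overlapping groups, and the call was lost in 9 of 18 alternatives, with adjusted p from 0.00147 to 0.117. Its receptor Ptch1 and target Gli1 were not called, whereas Hhip, a decoy receptor and target of the pathway, fell from 3.80 ± 0.683 to 0.267 ± 0.273 CPM. Pthlh, the PTHrP gene, fell from 0.809 ± 0.0984 to 0.189 ± 0.127 CPM, near the limit of detection at day 3 (adjusted p = 0.171 in the 14-library fit). Of the 13 genes tested, 3 were called higher and 4 lower; their median of -0.08 turned positive with library totals alone or upper quartile factors. It was -0.13, -0.05, -0.05, -0.18 and -0.17 without day 0 replicate 1 or 2 or day 3 replicate 1, 3 or 4.

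Of 14 mineralization and phosphate genes, 6 were called higher and 5 lower. Inhibitors of mineral growth among them were matrix Gla protein (Mgp), which rose from 87.5, 75.6 and 75.6 CPM to 257, 423, 457 and 424 CPM (2.30 ± 0.19 SE, adjusted p = 1.27e-05), Enpp1, which rose from 39.3 ± 0.137 to 69.0 ± 6.88 CPM and Ank, which rose from 35.1 ± 0.619 to 63.6 ± 11.2 CPM. Tnfsf11 (RANKL), the signal for osteoclasts, fell from 6.04 ± 0.588 to 0.815 ± 0.244 CPM, and its decoy receptor Tnfrsf11b from 117 ± 4.57 to 77.4 ± 7.77 CPM.

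**Figure D3:**
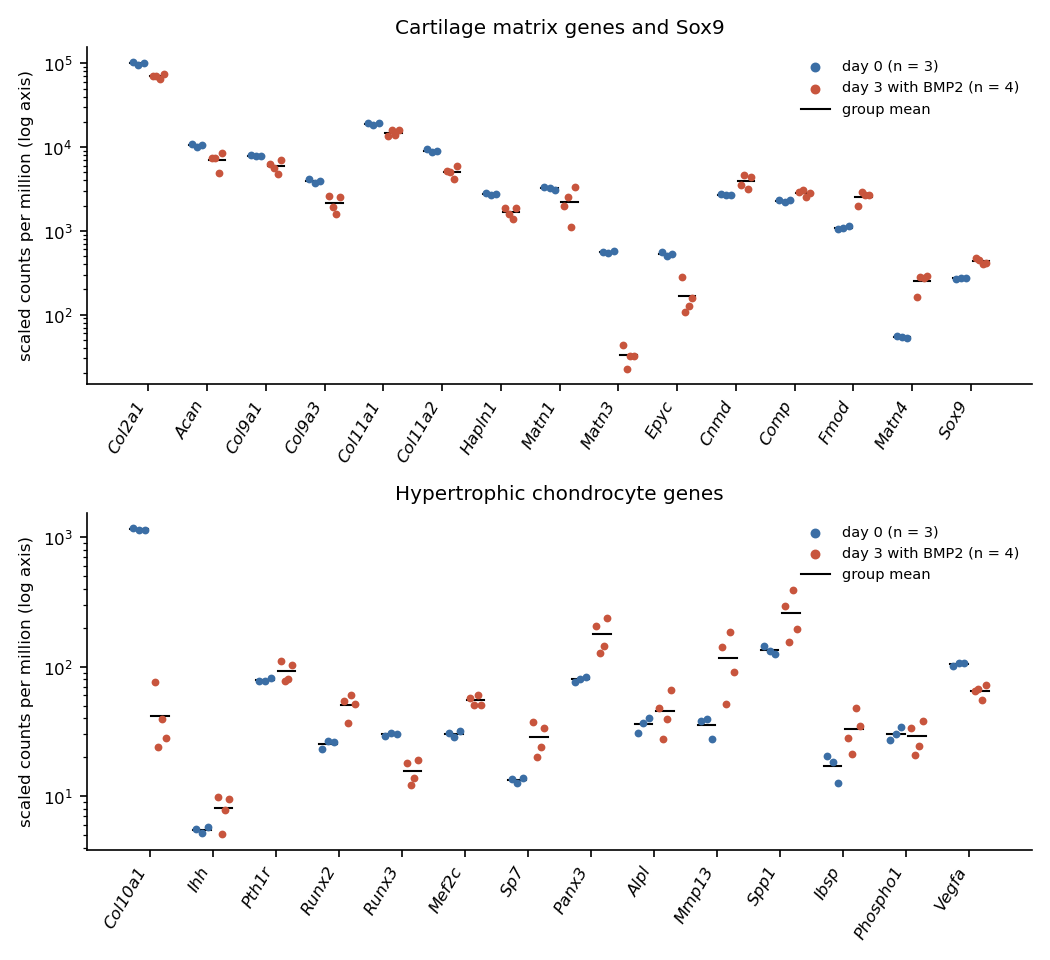
CPM on a log axis (y axis) in each control library for cartilage matrix genes with Sox9 (upper panel) and hypertrophic chondrocyte genes (lower panel), blue for day 0 (n = 3) and red for day 3 with BMP2 (n = 4), with the group mean as a black line. Matn3 and Col10a1 drop by more than the rest, while Sox9, Runx2, Mef2c, Sp7 and Panx3 lie above their day 0 range in every day 3 library.

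Genes of fibrous and tendon-like matrix went in both directions. Of 13 fibrous collagens, 7 were called higher and 5 lower, with a median of 0.52. Of 11 tendon and joint surface genes tested, 5 were called higher and 4 lower. The median of these 11 was 0.39, but it ran from 0.0066 to 0.52 over the alternatives. Large changes among them, of 1 log2 unit or more, were 3 falls and 2 rises. The steepest fall was that of Thbs4, at -7.69. Type I collagen rose from 2712, 2276 and 1516 CPM to 4845, 4038, 4168 and 3516 CPM for Col1a1, and type III collagen (Col3a1) from 1329 ± 175 to 2766 ± 542 CPM. Col14a1, a fibril-associated collagen, rose from 7.51 ± 2.67 to 191 ± 34.4 CPM (4.66 ± 0.274 SE, adjusted p = 2.37e-06). Col15a1 fell from 39.8 ± 4.11 to 3.18 ± 0.991 CPM, and the type VI chains Col6a1, Col6a2 and Col6a3 fell by 0.31, 0.52 and 0.79 on the log2 scale; the call of Col6a1 was lost with library totals alone and in the 14-library fit (adjusted p = 0.0597 and 0.0924). Day 0 replicate 3 had the lowest level of Col1a1, Col1a2, Col3a1 and Col14a1 among the day 0 libraries. The fibroblast marker sum contains Col1a1 and Col3a1, and the osteoblast marker sum contains Col1a1 and Col1a2. Those sums are therefore no separate observation from this group of genes.

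Enzymes that cross-link collagen went in opposite directions. Lox rose from 308 ± 13.9 to 1575 ± 333 CPM, while its relative Loxl4 fell from 1777, 1546 and 1661 CPM to 95.4, 76.8, 68.8 and 85.6 CPM (-4.35 ± 0.119 SE, adjusted p = 1.34e-07). Loxl3 fell from 758 ± 39.8 to 201 ± 53.7 CPM. Loxl2 fell by 2.14 on the log2 scale, a value that is uncertain because 47.0% of its 31-base words also occur in other genes. Over the 26 genes of collagen folding and secretion, 7 were called higher and 12 lower, and their median of -0.11 turned positive with library totals alone.

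Among matrix proteases and their inhibitors, 9 of 18 tested genes were called higher and 3 lower. Gelatinase A (Mmp2) rose from 120, 122 and 121 CPM to 691, 847, 804 and 715 CPM (2.66 ± 0.0861 SE, adjusted p = 2.19e-07). Mmp19 rose from 1.80 ± 0.232 to 37.3 ± 2.60 CPM, Mmp23 from 3.10 ± 0.806 to 28.0 ± 4.07 CPM, and the membrane protease Mmp14 from 103 ± 2.47 to 228 ± 32.4 CPM. The aggrecanases went apart, since Adamts4 rose by 2.71 on the log2 scale, Adamts1 fell by 2.66 and Adamts5 was not called. The inhibitor Timp3 fell from 4920, 5152 and 5304 CPM to 937, 1393, 1300 and 1234 CPM, whereas Timp2 rose from 563 ± 20.7 to 1098 ± 165 CPM.

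Secreted regulators of WNT signalling changed by large amounts in both directions. Of 17 WNT antagonists and targets tested, 9 were called higher and 6 lower, with a median of 0.88, which was 0.43 and 0.54 without day 3 replicate 3 or 4. R-spondin 3 (Rspo3), an enhancer of WNT receptors, rose from 29.7, 31.6 and 31.6 CPM to 238, 261, 241 and 237 CPM (2.98 ± 0.0586 SE, adjusted p = 4.22e-08). The antagonists Frzb, Dkk3 and Sfrp2 rose by 2.29, 2.55 and 3.61 on the log2 scale, and the target Axin2 rose from a low level by 1.68. Wnt5a rose from 16.5 ± 1.06 to 73.5 ± 7.60 CPM while Wnt5b fell from 9.65 ± 0.338 to 2.12 ± 0.269 CPM. Sfrp1 and Wnt11 fell by 2.23 and 2.27.

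In FGF signalling, 7 of 17 tested genes were called higher and 6 lower, and the median of -0.08 turned positive with library totals alone or upper quartile factors and was -0.27 without day 3 replicate 3. Fgf7 rose from 6.77 ± 1.33 to 46.1 ± 8.91 CPM and the receptor Fgfr2 from 275 ± 3.45 to 539 ± 48.2 CPM. Of the feedback inhibitors named here, Dusp6, Spry1 and Spry2 were called lower (-1.50, -2.42 and -1.0 on the log2 scale), and Spry4 and Spred1 were not called.

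The 2 IGF ligands went in opposite directions. Igf2, the fetal growth factor, was at 12164, 12528 and 12913 CPM at day 0 and at 1630, 2818, 1959 and 3822 CPM at day 3 (-2.29 ± 0.267 SE, adjusted p = 8.53e-05); its level is uncertain, because 76.0% of its 31-base words occur in another gene model. Igf1 rose from 1.56 ± 0.702 to 15.2 ± 3.86 CPM. The binding proteins Igfbp3, Igfbp4 and Igfbp5 rose by 3.78, 1.91 and 1.65 on the log2 scale, with Igfbp5 reaching 2466 to 4571 CPM.

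Cell division genes were lower almost throughout. Of 38 genes of S phase and mitosis, all tested, 36 were called lower and 0 higher; Mcm4 and Ccne1 were not called. The median was -1.68 and 26 genes fell by at least 1 on the log2 scale, against 8.53% of all genes tested. Mki67, the proliferation antigen, measured 273, 256 and 253 CPM at day 0 and 76.2, 47.2, 57.1 and 39.1 CPM at day 3 (-2.25 ± 0.186 SE, adjusted p = 1.27e-05). Top2a, needed to part sister chromatids, fell from 269 ± 17.8 to 62.3 ± 23.9 CPM, and the mitotic cyclins Ccnb1 and Ccnb2 fell by 2.0 and 1.56; the level of Ccnb1 is uncertain, with 46.9% of its 31-base words in other genes. Mybl2, the regulator of these genes in S phase, fell by 2.56, though 25.3% of its 31-base words are shared with other genes. The fall was smaller in day 3 replicate 1: the median over the 38 genes of the level relative to the day 0 mean was 0.463 in that library and 0.251, 0.281 and 0.251 in replicates 2, 3 and 4.

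Of the 7 inhibitors of cyclin-dependent kinases, 4 rose (Cdkn1a, Cdkn1c, Cdkn2a and Cdkn2b), Cdkn2c fell by 0.50 on the log2 scale (adjusted p = 0.253 in the 14-library fit), Cdkn2d fell by 0.83, and Cdkn1b was not called. Cdkn1a (p21), which blocks Cdk2, rose from 122, 115 and 121 CPM to 609, 510, 495 and 558 CPM (2.19 ± 0.0832 SE, adjusted p = 3.95e-07). Cdkn2a, the locus of p16 and p19Arf (chromosome 4, 89274471 to 89294653 on GRCm38), rose from 0.552, 0.758 and 0.47 CPM to 22.4, 24.3, 26.9 and 20.05 CPM (5.29 ± 0.18 SE, adjusted p = 2.41e-07). Its neighbour Cdkn2b (p15) rose from 3.44 ± 0.354 to 19.3 ± 2.45 CPM, and Cdkn1c (p57), the inhibitor of hypertrophic chondrocytes, from 523 ± 9.81 to 876 ± 99.0 CPM (adjusted p = 0.0633 in the 14-library fit). Ccnd1, a G1 cyclin, was also higher, at 359 ± 47.2 against 101 ± 3.35 CPM, and Myc was lower, at 32.0 ± 3.35 against 81.7 ± 4.0 CPM. Of the 17 G1 cyclins and inhibitors, 7 were called higher and 6 lower; their median of -0.04 turned positive with library totals alone, upper quartile factors or the thinned day 0 libraries. That median was -0.08 without day 0 replicate 2, and -0.02 without day 0 replicate 3 or day 3 replicate 1 or 3.

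Most targets of p53 rose: of 18 tested, 13 were called higher and 4 lower, with a median of 0.59. Trp53inp1, a stress-induced cofactor of p53, showed the largest rise, from 14.2, 14.9 and 14.9 CPM to 109, 133, 159 and 123 CPM (3.16 ± 0.129 SE, adjusted p = 5.27e-07). Phlda3, Zmat3 and Ccng1 rose by 1.85, 1.35 and 1.33 on the log2 scale, and Mdm2, the ubiquitin ligase of p53, by 0.57. The Trp53 transcript itself fell by 0.39, and Gdf15, Btg2 and Perp were lower as well.

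**Figure D4:**
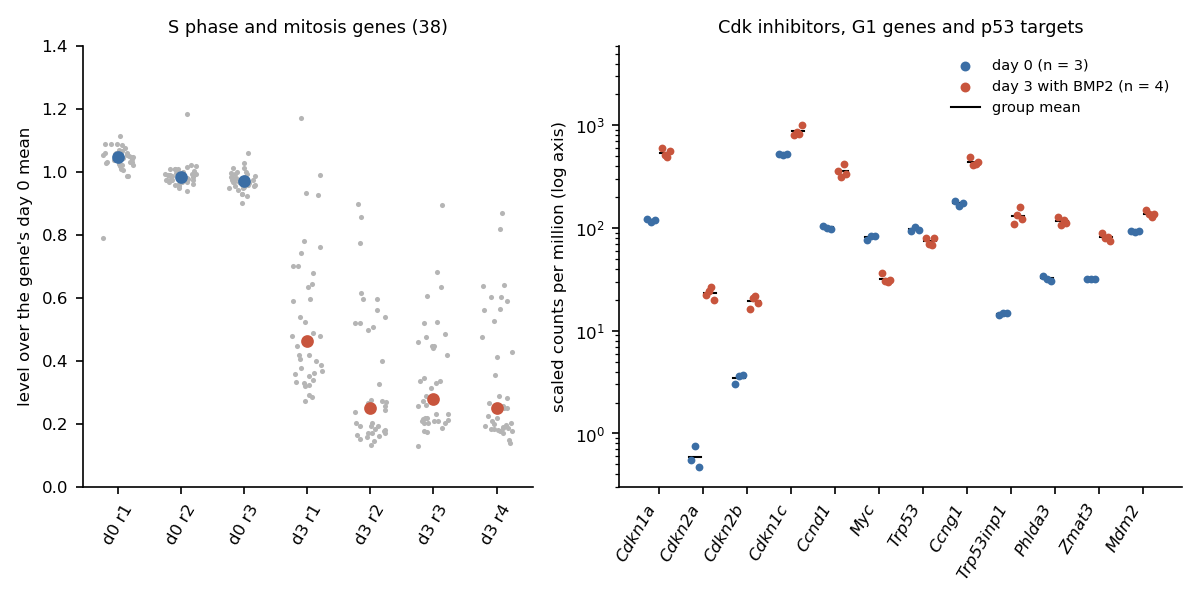
Left, level of each of 38 S phase and mitosis genes in each control library relative to its day 0 mean (grey points), with the median per library (blue for day 0, red for day 3 with BMP2), which is 0.463 in day 3 replicate 1 and 0.251 to 0.281 in the others. Right, CPM on a log axis for selected Cdk inhibitors, G1 genes and p53 targets in each library (n = 3 and n = 4). The group mean is a black line. Cdkn1a, Cdkn2a, Cdkn2b and the p53 targets drawn lie higher at day 3, Myc and Trp53 lower. The p53 targets Gdf15, Btg2 and Perp, called lower, are not drawn.

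Promoters of the mitotic genes are shown because most of the group fell together. For 30 of the 38 genes a RefSeq promoter window (250 bases before the start site, GRCm38.p6) was found, and a CCAAT box (CCAAT, either strand) lay in 23 of them (76.7%) against 36.6% of the 10326 windows of tested genes. The cell cycle homology region (CHR, TTTGAA, either strand) lay in 6 windows (20%, against 10.6%) and an E2F site (TTTCCCGC or TTTGGCGC, either strand) in 4 (13.3%, against 2.61%). The windows of the 2 mitotic B cyclins follow, 5′ to 3′ on the strand of the gene, with CCAAT boxes and CHR matches in capitals. Ccnb1 (minus strand, chr13:100786487-100786736) holds CCAAT at 99 and 67 bases before the start site, and Ccnb2 (minus strand, chr9:70421555-70421804) holds it at 87, 54 and 21 bases before, with a CHR match at 167. Positions count from the RefSeq start, which lies 84 and 7 bases from the start of the GENCODE gene model. A match is a string of letters and not a measured binding site.
Ccnb1: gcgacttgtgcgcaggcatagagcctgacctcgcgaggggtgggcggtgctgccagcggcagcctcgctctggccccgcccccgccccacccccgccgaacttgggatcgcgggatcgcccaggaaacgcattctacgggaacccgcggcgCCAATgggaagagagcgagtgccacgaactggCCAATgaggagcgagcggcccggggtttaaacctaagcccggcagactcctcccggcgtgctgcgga
Ccnb2: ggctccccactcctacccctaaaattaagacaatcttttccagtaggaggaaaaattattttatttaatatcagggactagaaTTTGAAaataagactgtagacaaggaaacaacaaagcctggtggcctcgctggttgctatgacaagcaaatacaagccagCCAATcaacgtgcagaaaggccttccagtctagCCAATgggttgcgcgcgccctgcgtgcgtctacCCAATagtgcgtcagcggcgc

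Immediate early genes, which respond to growth factors and stress within minutes, were mostly lower at day 3. Of 18 tested, 14 were called lower and 3 higher, with a median of -1.38. Fos, a subunit of AP-1, was at 87.5, 85 and 76.3 CPM at day 0 and at 2.13, 1.85, 5.22 and 1.99 CPM at day 3 (-4.88 ± 0.263 SE, adjusted p = 1.64e-06). Dusp1, a phosphatase that ends MAP kinase signals, fell from 113 ± 5.42 to 5.63 ± 1.19 CPM, and Egr1, Atf3 and Ier2 fell by 1.75, 2.50 and 2.28 on the log2 scale. Egr2, Egr3 and Nr4a1 were the members called higher, with means at or below 9.82 CPM.

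Interferon response genes rose from low levels. Of 22 listed genes, 16 had enough counts to be tested; 15 of these were called higher and 0 lower, with a median of 2.15, and Ifit2 was the 1 not called. Its change of -0.22 on the log2 scale missed the threshold (adjusted p = 0.0519) but was called lower in 7 of 18 alternatives, with adjusted p from 0.0224 to 0.351 over all of them; 1 of these left out day 3 replicate 3. The remaining 6, among them Oas1a and Rsad2, stayed too low to test. The filter on low counts lets a gene that is very low at day 0 be tested only if it is higher at day 3. The direction of such genes, Isg15 and Ifit1 among them, was therefore largely set by the filter. The counts of calls and the median of this group carry that limit. Isg15, a ubiquitin-like modifier, went from 0.404, 0.369 and 0.38 CPM to 2.19, 1.64, 1.94 and 2.18 CPM (2.35 ± 0.213 SE, adjusted p = 2.08e-05), and Ifit1 from 0.149 ± 0.0603 to 3.06 ± 0.742 CPM. Irf7, an amplifier of the response, rose by 3.46 on the log2 scale. The signal transducers Stat2 and Irf9 rose from 7.12 ± 0.72 to 15.9 ± 2.38 and from 6.63 ± 0.542 to 21.4 ± 1.44 CPM. The RNA sensor Ddx58 (RIG-I) rose from 16.5 ± 0.438 to 41.1 ± 3.33 CPM.

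The interferon-stimulated response element, searched on either strand as GAAA, any 2 bases and GAAA again, lay in 7 of the 13 RefSeq windows of these genes (53.8%) and in 2.51% of all 10326 windows. The windows of Isg15 and Ifit1 are shown because both genes rose and both hold repeats of the element, here in capitals, 5′ to 3′ on the strand of the gene. Isg15 (minus strand, chr4:156200819-156201068) holds 3 overlapping matches that begin 78, 72 and 66 bases before the start site. Ifit1 (plus strand, chr19:34640639-34640888) holds 2 matches on the opposite strand, 104 and 85 bases before it. The RefSeq start of Ifit1 lies 18 bases from that of the GENCODE gene model. The window of Irf7, which also rose, holds no match and is not shown. Other motifs were searched in other groups, on either strand. TCAC, any base and CCAC lay in 1 of 14 windows of cholesterol synthesis genes (7.14%, against 0.959% of all windows). TGACGTCA lay in 1 of 13 windows of immediate early genes (7.69%, against 2.70%). GGCGCC lay in 4 of 10 windows of BMP target genes (40%, against 17.3%).
Isg15: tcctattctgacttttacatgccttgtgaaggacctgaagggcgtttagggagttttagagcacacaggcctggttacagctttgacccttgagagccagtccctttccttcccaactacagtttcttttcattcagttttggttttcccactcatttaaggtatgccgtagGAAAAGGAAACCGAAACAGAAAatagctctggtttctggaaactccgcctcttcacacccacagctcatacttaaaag
Ifit1: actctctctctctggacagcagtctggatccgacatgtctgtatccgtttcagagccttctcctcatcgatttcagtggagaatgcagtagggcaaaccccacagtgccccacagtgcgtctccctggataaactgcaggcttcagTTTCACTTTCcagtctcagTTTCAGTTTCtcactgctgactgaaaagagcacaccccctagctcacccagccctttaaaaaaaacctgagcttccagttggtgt

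Genes of glucose metabolism were lower more often than higher. Of 23 glycolytic genes, 14 were called lower and 3 higher, with a median of -0.36. The glucose transporter Slc2a1 (Glut1) fell from 286, 294 and 300.4 CPM to 82.6, 80.3, 71.8 and 94.7 CPM (-1.83 ± 0.0838 SE, adjusted p = 8e-07), and the lactate carriers Slc16a1 and Slc16a3 fell by 1.64 and 1.74 on the log2 scale. Hexokinase 2 (Hk2) fell by 1.39, Pgk1 by 1.23 and Gapdh by 0.95, and Ldhb rose by 1.78. The values of Pgk1, Gapdh and Ldhb are uncertain, because 68.3%, 30.7% and 41.4% of their 31-base words are shared with other genes. Of 16 hypoxia response genes, 10 were called lower and 2 higher (median -0.42), with 1 higher without day 0 replicate 1 or 2 or day 3 replicate 2 and 4 higher without day 3 replicate 1, and Hif1a itself fell from 565 ± 11.8 to 232 ± 21.1 CPM.

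Genes of the mitochondrion did not move as 1 group. Of 20 TCA cycle genes, 10 were called lower and 2 higher (median -0.17), with citrate synthase (Cs) at -0.68. Of 42 nuclear genes of oxidative phosphorylation, 16 were called lower and 6 higher, and their median of -0.10 turned positive with library totals alone and was -0.04 without day 3 replicate 3. Without day 0 replicate 1, 2 or 3 or day 3 replicate 4, 2 of them were called higher. Transcripts of the mitochondrial genome were higher: 10 of 13 were called higher and 1 (mt-Nd1, not called with library totals alone, adjusted p = 0.0779) lower, with a median of 0.36, and mt-Cytb rose from 1625 ± 61.5 to 2515 ± 135 CPM. Fatty acid oxidation genes were higher in 11 of 18 and lower in 3, with a median of 0.29; Cpt1a, the entry enzyme for fatty acids, rose from 8.18 ± 0.883 to 22.5 ± 6.24 CPM and Cpt1c from 14.7 ± 0.378 to 51.0 ± 1.85 CPM. Cytosolic ribosomal protein genes were called in 7 of 49, 2 higher and 5 lower, a smaller share than the 66.5% of all genes tested. Without day 3 replicate 3, 13 of them were called higher, and without day 0 replicate 1 or day 3 replicate 2, 2 and 3 were called lower.

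Cholesterol synthesis genes were lower: 17 of 20 were called lower and 0 higher, with a median of -0.78. Fdps, which makes the farnesyl unit of the pathway, fell from 70.9, 66.7 and 71.3 CPM to 31.3, 25.1, 23 and 28.6 CPM (-1.37 ± 0.0978 SE, adjusted p = 5.95e-06), and Srebf2, the transcription factor of these genes, fell from 135 ± 3.14 to 72.3 ± 3.37 CPM. The day 3 libraries lay below the day 0 range for both genes.

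Over 17 tested genes of the DNA methylation machinery, 9 were called lower and 3 higher, with a median of -0.28; 1 was called higher without day 0 replicate 1, 2 or 3 or day 3 replicate 2. Dnmt1, the floxed gene of the study, for which the labels of these cultures name no Cre, measured 161, 148 and 149 CPM at day 0 and 79.1, 61.5, 62.4 and 65.5 CPM at day 3 (-1.19 ± 0.0868 SE, adjusted p = 6.53e-06). Uhrf1, which recruits Dnmt1 to replicating DNA, fell from 42.1 ± 3.46 to 10.1 ± 3.24 CPM, with 29.4% of its 31-base words shared with other genes. Of the de novo enzymes, Dnmt3a was not called and Dnmt3b fell by 1.16. Tet1, which oxidizes methylcytosine, rose from 8.65, 10.5 and 11.1 CPM to 16.1, 25.7, 25.5 and 25.4 CPM.

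Limb and skeletal homeobox and T-box genes were higher in 9 of 19 tested and lower in 3, with a median of 0.70. Dlx1 rose from 0.135 to 4.44 CPM on average, alongside its neighbour Dlx2. Prrx1 and Prrx2, markers of limb mesenchyme, rose by 1.18 and 1.64 on the log2 scale. Tbx5, a forelimb gene, fell by 2.96.

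Further genes with large changes were varied in function, and some of them, such as Thbs4, belong to groups above. Among rises, Hsd11b2, which inactivates glucocorticoids, went from 0.0637, 0.0819 and 0.0671 CPM, at the limit of detection, to 1.73, 6.92, 14 and 8.16 CPM. The iron exporter Slc40a1 (ferroportin) rose from 3.30 ± 0.262 to 122 ± 88.4 CPM, with day 3 replicate 3 at 249 CPM and replicate 1 at 45.8 CPM. Syt1, Lrrn3, Olfml2a and Pi15 rose by 5.70, 5.54, 6.07 and 5.19 on the log2 scale. By the difference in mean CPM, thrombospondin 1 (Thbs1) led with a rise from 11381 ± 302 to 18625 ± 4819 CPM, followed by proenkephalin (Penk), from 412 ± 20.5 to 3062 ± 1022 CPM.

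Among falls, 5 genes ended at or below 3 counts in every day 3 library, so their folds are lower bounds against that floor in each library. Thbs4, a tendon matrix protein, was at 16.1, 10.5 and 3.87 CPM at day 0 and was at least 50.9-fold lower at day 3. Apela, a peptide hormone of which 28.3% of 31-base words are shared with other genes, was at least 32.4-fold lower, Shisa3 at least 33.4-fold and Rassf6 at least 19.6-fold. Gm10800 was at least 214-fold lower, but 42.0% of its 31-base words occur elsewhere in the transcriptome, so its level is uncertain. The keratin Krt17 fell from 11.0 ± 1.09 to 0.153 ± 0.108 CPM and F2rl1, a protease-activated receptor, by 4.93 on the log2 scale. The largest falls in mean CPM after Col2a1 were those of Igf2 and of fibronectin (Fn1), which went from 17220 ± 894 to 11189 ± 1413 CPM.

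Whether the control cultures changed differently from the cKO cultures was tested as an interaction in 1 fit of the 14 culture libraries. There 2509 of 14909 genes (16.8%) were called, and 11 genes chosen by their role are reported. Leaving out control day 0 replicate 2 or 3 or cKO day 0 replicate 3 lowered that count to 1591, 1668 and 1604. The floxed gene was low in the cKO libraries in that fit: Dnmt1 was at 27.4, 26.8 and 32.8 CPM at day 0 and at 34.3, 35.6, 22.2 and 10.9 CPM at day 3, with the control libraries between 63.3 and 166 CPM. Of the 11, the difference passed the threshold for Smad6 and Ibsp. Smad6 changed by -0.15 in control and by 0.71 in cKO cultures, a difference of 0.87 ± 0.152 (SE, adjusted p = 0.0025) that was called in all 14 fits with a library left out. Ibsp changed by 0.93 in control and by 5.13 in cKO cultures, a difference of 4.20 ± 1.33 (SE, adjusted p = 0.0466) that was called in 2 of those 14 fits and ran from 3.64 to 7.08. Single cKO libraries stood apart for Ibsp: day 0 replicate 1 was at 15.9 CPM against 1.19 and 0.407 CPM, and day 3 replicate 4 at 21.9 CPM against 239 to 290 CPM. The difference was 7.08 without that day 0 library and 4.61 without that day 3 library, the fits in which it was called.

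The other 9 genes did not pass the threshold with all libraries in. For Col10a1 the changes were -4.80 in control and -0.78 in cKO cultures, a difference of 4.02 ± 1.34 (SE, adjusted p = 0.0569). It was called in 4 of the 14 fits with a library left out, those without a cKO day 3 library, and ran from 1.60 to 4.47. Without cKO day 3 replicate 1, 2 or 3 it was 4.40, 4.36 and 4.39 (adjusted p = 0.0309, 0.0454 and 0.0343). cKO day 3 replicate 4 stood apart from its group there, with 1392 CPM of Col10a1 against 56.1 to 101 CPM in the other cKO day 3 libraries and 705 CPM of Col2a1 against 8399 to 12108 CPM. Without that library 4051 genes were called in place of 2509. The differences for Col10a1 (1.60), Dnmt1 (1.28), Col2a1 (-1.50), Acan (-1.03) and Sox9 (-0.41) then passed, with adjusted p between 0.000392 and 0.0204. Id1, Ihh, Runx2 and Mki67 passed in neither fit; Mki67 changed by -2.25 in control and -2.48 in cKO cultures, a difference of -0.23 ± 0.484 (SE).

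**Figure D5:**
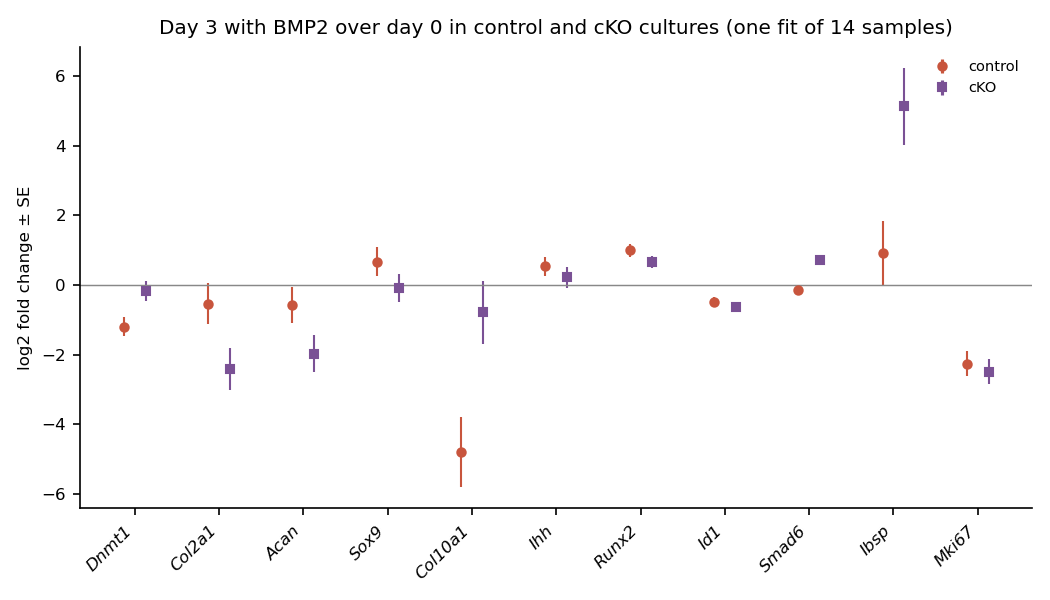
Log2 fold change of day 3 with BMP2 over day 0 with its standard error (y axis) for 11 genes (x axis) in control cultures (red circles, 3 and 4 libraries) and cKO cultures (purple squares, 3 and 4 libraries), from 1 fit of 14 libraries. The difference between genotypes was called for Smad6 (-0.15 and 0.71) and Ibsp (0.93 and 5.13); for Col10a1 (-4.80 and -0.78) it was not, and both error bars are long.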

How the data were processed

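RNA-seq was read from 14 culture libraries, 7 of them from control cultures. The authors deposited estimated counts per gene, in 1 table for day 0 and 1 for day 3, covering protein-coding genes and pseudogenes. Libraries were stranded and made from DNase-treated total RNA, per the labels' protocols, and the build was GRCm38, per the submitters' processing notes; the aligner and the counting program are not given in the sources used here. Of 34866 gene identifiers, 34652 were matched to GENCODE M21. The estimated counts were rounded to whole numbers and fitted with edgeR 4.0.16 (R 4.3.3), using its TMM scaling factors, a filter on low counts (filterByExpr with a minimum count of 10 and a minimum total of 15) and the quasi-likelihood test. P-values were adjusted by the Benjamini-Hochberg method over all genes tested, with a threshold of 0.05. The labels call the samples biological replicates without naming animals, so p-values measure the spread between these samples. The script was tested on simulated data.

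The members and gene lists were chosen with earlier results of these data known. Named genes were the key members of the lists; the 12 rising and 12 falling genes with the largest log2 fold change, and 6 and 6 with the largest difference in CPM, among called genes whose groups did not overlap; up to 4 called genes per list whose average log2 CPM was 1 or more; and markers of other cell types. Further list members were named after their values were seen. A few genes that this rule names are not reported here. The share of 31-base words of a gene's longest transcript found in other genes came from GENCODE M21; above 20% the gene is reported as uncertain. Alternatives were other scalings, DESeq2 1.42.0, other filters, a fit of all 14 cultures, thinned day 0 libraries, a replicate block, each library left out and, chosen after seeing the data, a covariate for the Y-linked level.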

Additional observations from a re-analysis of the deposited data

Results flagged for a closer look

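In the 4 day 3 libraries, 27 of 316 named genes had 1 library far from the other 3 by Dixon's criterion; chance alone marks about 1 in 20 groups. Day 3 replicate 1 stood apart at the high end for Loxl3 (281 CPM), Uhrf1 (14.9 CPM), Id3 (125 CPM), Cdc6 (3.52 CPM), Mybl2 (5.65 CPM), Igfbp3 (25.8 CPM), Top2a (97.7 CPM), Egfl7 (7.58 CPM), Ccna2 (29.9 CPM), Sfrp1 (5.25 CPM), Ccnb1 (26.9 CPM), Dlx1 (8.65 CPM) and Cdkn2d (11.6 CPM). Day 3 replicate 1 stood apart at the low end for Matn4 (162 CPM), Mgp (257 CPM), Loxl2 (219 CPM), Acta2 (150 CPM), Hist1h1c (68.6 CPM), Tet1 (16.1 CPM) and Pthlh (0 CPM). Day 3 replicate 3 stood apart at the high end for Axin2 (3.29 CPM), Fos (5.22 CPM), Spred1 (87.4 CPM), Egr1 (66.6 CPM), Col6a3 (913 CPM) and Gdf6 (28.2 CPM). Day 3 replicate 3 stood apart at the low end for mt-Nd5 (1801 CPM).

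The change from day 0 to day 3 differed between cKO and control cultures for 2 of the 11 genes compared: Smad6, by 0.87 on the log2 scale, and Ibsp, by 4.20.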

How the results depend on the processing

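The count of called genes stayed between 8091 and 9541 (9074 as reported) when each library was left out, and that of genes past 1 on the log2 scale between 2677 and 3008. Other scalings, filters, DESeq2 and the 14-library fit gave 8476 to 9274 called genes. The fit of all 14 cultures lost the calls of 27 of 302 named genes, among them Sox9, Acan and Hapln1, and gained 1. With the replicate number as a block, 8359 genes were called and 5 named genes lost their call; same-numbered libraries did not deviate together (correlations of 0.106, -0.0127 and -0.00034), so the numbers were not used as pairs. The block gave 0.102 for Adamts5. The covariate for the Y-linked level, chosen after seeing the data, gave 9064 called genes, cost no named gene its call and gave Sox6 -0.0050.

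The log2 fold changes that took the other sign belonged to genes that were not called. With library totals alone these were Cdkn1b 0.0849, Dnmt3a 0.0452, Ptch1 0.0358, Bmpr1a 0.0083, Adamts5 0.118, Gli1 0.0187, Acvr1 0.0230, Phospho1 0.0556 and Fgfr3 0.0340. With upper quartile factors they were Cdkn1b 0.0515, Dnmt3a 0.0118, Ptch1 0.0022, Adamts5 0.0851, Phospho1 0.0231 and Fgfr3 0.00083. Thinned day 0 libraries gave Cdkn1b 0.00061, TMM without the 10 most abundant genes gave Adamts5 0.0020, the stricter filter gave Adamts5 0.0059 and no filter gave Sox6 -0.0138. Leaving out 1 library at a time gave -0.0772 to 0.0261 for Cdkn1b, -0.157 to 0.0127 for Dnmt3a, -0.168 to 0.0233 for Ptch1, -0.212 to 0.140 for Adamts5, -0.185 to 0.226 for Bambi, -0.233 to 0.0447 for Gli1, -0.210 to 0.0737 for Phospho1, -0.0357 to 0.102 for Sox6 and -0.254 to 0.0497 for Fgfr3.

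For the difference between genotypes, 1591 to 4051 genes were called with a library left out: 1591 without control day 0 replicate 2, 1668 without replicate 3, 1604 without cKO day 0 replicate 3 and 4051 without cKO day 3 replicate 4. The difference for Mki67 then ran from -0.416 to 0.0572. The causes were not tested. Day 3 depth limits genes below about 0.200 CPM.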

Other observations

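Several gene groups outside those above also differed between day 3 and day 0 in the control cultures. These lists were drawn up after their values were seen, so their counts describe and support nothing. Genes of the actin cytoskeleton were lower, with 12 of 16 called lower, 0 called higher and a median log2 fold change of -1.13. Beta-actin (Actb), uncertain because 35.1% of its 31-base words occur in other genes, fell from 1636 ± 42.5 (SD, n = 3) to 758 ± 17.2 CPM (n = 4), and filamin A (Flna), a cross-linker of actin filaments, from 1337 ± 48.6 to 574 ± 95.0 CPM. Smooth muscle actin (Acta2) fell from 626 ± 12.6 to 185 ± 23.8 CPM. Of 10 tested keratin and epithelial genes, 9 were called lower, by 3.04 to 6.15 on the log2 scale, and the 12 genes listed summed to 126 to 133 CPM at day 0 and 12.8 to 16.03 CPM at day 3; Krt7 fell from 18.4 ± 1.36 to 1.09 ± 0.466 CPM.

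Genes of antigen presentation by MHC class I and of the lysosome were mostly higher. Of 13 presentation genes, 11 were called higher and 1 lower, with a median of 1.54; beta-2 microglobulin (B2m), the light chain of class I molecules, rose from 83.3 ± 2.64 to 242 ± 12.9 CPM and the peptide transporter Tap1 from 3.42 ± 0.600 to 26.5 ± 2.26 CPM. Of 15 lysosomal genes, 13 were called higher and 1 lower, and Lamp1 rose from 404 ± 3.71 to 565 ± 7.13 CPM. Of 14 clock genes, 5 were called higher and 7 lower: Dbp rose from 2.69 ± 0.574 to 43.2 ± 5.48 CPM while Npas2 fell from 9.98 ± 2.21 to 1.14 ± 0.400 CPM. The labels give no hour of harvest. Among 18 imprinted genes, 5 were called higher and 8 lower, with Dlk1 at 755 ± 150 and then 57.3 ± 8.48 CPM and Magel2 at 40.0 ± 1.97 and then 1.59 ± 1.01 CPM.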
